A study of Mus musculus with 12 samples.

Results

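Interferon beta and the chains of the type I and type II interferon receptors are described here in intestinal stroma before and after a bacterial stimulus. The 5 genes were chosen by symbol: Ifnb1, the ligand, Ifnar1 and Ifnar2, the chains of its receptor, and Ifngr1 and Ifngr2, the chains of the interferon gamma receptor. They are 5 of 23329 listed genes, of which 18810 had a count in any library. All 5 passed the filter on low counts, and Ifnb1 did so through the embryonic LPS group alone, so that its passing carries no weight of its own.

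The study measured mRNA in primary stromal cells of the small intestine from mice on the C57BL6/J background, either embryonic (E14.5) or adult. Cells were grown in culture to passage 2 or 3 and then kept for 6 h with lipopolysaccharide (LPS) of Escherichia coli O111:B4, at a concentration given as 10 µg/µl, or with vehicle (PBS). There were 3 libraries in each of the 4 groups, embryonic PBS, embryonic LPS, adult PBS and adult LPS, and no transgene or deletion is given for any group. By the study's account the cultures were independent, and several embryos were pooled for an embryonic culture.

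Type I interferon is made after LPS when TLR4 signals from endosomes through the adaptor TRIF, which activates the kinases TBK1 and IKK epsilon and, through them, the transcription factor IRF3. Secreted interferon beta binds IFNAR1 and IFNAR2 on the same or neighbouring cells, and the kinases TYK2 and JAK1 then phosphorylate STAT factors, which with IRF9 switch on interferon-stimulated genes. Interferon gamma, made mainly by T and NK cells, acts through IFNGR1 and IFNGR2 and the kinases JAK1 and JAK2. The receptor chains are found on most cell types, whereas Ifnb1 is close to silent until a cell senses microbial products.

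The 4 receptor genes lie at 2 places in the genome (coordinates in GRCm38.p6). Ifnar2 (chr16:91372783-91405589), Ifnar1 (chr16:91485032-91510523) and Ifngr2 (chr16:91547059-91564007) stand on the plus strand within 191.2 kb, together with Il10rb (chr16:91406157-91425834), a chain of the interleukin 10 and interferon lambda receptors that 567 bases separate from the end of Ifnar2. These 4 were the protein-coding genes among 10 annotated in that stretch. A long non-coding RNA, Gm36587, overlaps the start of Ifnar2, and its strand was not known here. Ifngr1 (chr10:19591949-19610229) lies apart, and Ifnb1 (chr4:88522025-88522794, minus strand) has a single exon and spans 770 bases.

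The promoters of Ifnb1 and Ifngr2 are shown because each held a match to the NF-kB motif in the 250 bases before the RefSeq start, and because these were the member genes called as higher with LPS in embryonic stroma without the replicate block described below. With that block Ifnar1, Ifnar2 and Ifngr1 were called there as well, and none of them held a match to the NF-kB motif. The Ifnb1 stretch (chr4:88522855-88522959, minus strand) runs from 165 to 61 bases before the start, and the Ifngr2 stretch (chr16:91546939-91547058, plus strand) covers the last 120 bases before it, both 5′ to 3′. Capitals mark the NF-kB match (GGGANNTTC, read as its reverse complement in Ifngr2) and, in Ifnb1, also the matches to AANNGAAA, the core bound by IRF factors.
Ifnb1: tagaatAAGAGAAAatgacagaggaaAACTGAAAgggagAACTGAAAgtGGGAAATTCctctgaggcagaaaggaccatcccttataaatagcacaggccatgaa
Ifngr2: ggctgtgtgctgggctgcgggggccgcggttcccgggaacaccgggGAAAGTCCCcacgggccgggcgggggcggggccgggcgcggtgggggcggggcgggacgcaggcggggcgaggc

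The Ifnb1 match to NF-kB lies at -116 to -108 and is preceded by 3 matches to the IRF core, which start at -159, -139 and -126. That core was added to the search after the sequence had been read. The Ifngr2 match lies at -74 to -66, in a stretch with 84.2% G and C against 41% in the Ifnb1 stretch. Ifnar2 held a match to TTCNNNGAA, the element bound by STAT dimers, at -214 to -206, and neither Ifnar1 nor Ifngr1 matched any motif searched. The longer interferon-stimulated element, GAAANNGAA, was in none of the 5 windows. Both strands were searched, and of 32851 RefSeq promoter windows of this length 3.23% held the NF-kB motif, 7.02% the STAT motif, 7.13% the longer element and 21.3% the IRF core. A match is a description of letters and shows no binding.

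Counts assigned to genes ranged from 18850224 to 32672370 per library, and 3 counts, taken as the smallest detectable level, corresponded to between 0.0897 and 0.1445 CPM (the usual unit, a gene's count relative to its library's total with TMM factors applied). The markers of fibroblasts (8 of 8 genes) and of smooth muscle and myofibroblasts (6 of 6) were above 3 counts in all libraries, the type that the label names, with summed levels of at least 8130 CPM and 14140 CPM. Macrophage markers were also present, and 12 of them summed to between 154.3 and 2199 CPM in embryonic and between 9.441 and 109.9 CPM in adult libraries. Endothelial markers reached 1750 CPM and 1681 CPM in the PBS and LPS libraries of adult culture 2, against 31.04 and 34.67 CPM at most in embryonic PBS and LPS libraries. In bulk RNA, fewer cells of a type and less RNA per cell cannot be told apart. By flow cytometry, the study reported a higher percentage of leukocytes with CD45 and CD11b in embryonic than in adult stromal cultures.

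Ifnb1 was silent in every culture without LPS and was read in every culture with it. There was no count in the 6 PBS libraries, among 95242982 gene counts in embryonic and 76848665 in adult stroma. With LPS, embryonic libraries 1, 2 and 3 held 38, 366 and 621 counts, or 1.33, 12.6 and 24.1 CPM. Adult libraries 1, 2 and 3 held 34, 5 and 6 counts, or 1.11, 0.154 and 0.259 CPM. The LPS groups did not overlap with PBS at either stage, nor with each other, although embryonic culture 1 and adult culture 1 lay close together. The share of all genes whose groups did not overlap was not counted.

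**Figure D1:**
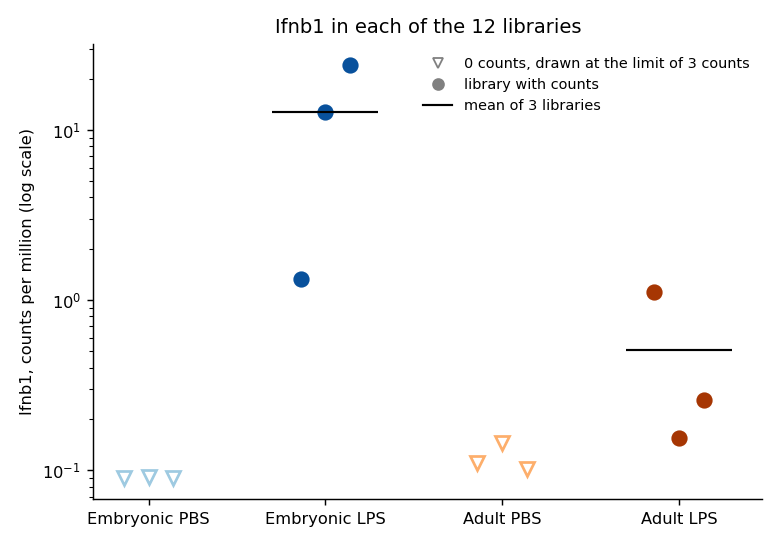
Ifnb1 in CPM on a log axis for each of the 12 libraries, by group. Filled points are libraries with counts, open triangles are libraries with 0 counts drawn at the limit of 3 counts, and lines are means of 3 libraries. The 6 PBS libraries have no count, the embryonic LPS libraries lie between 1.33 and 24.1 CPM, and the adult LPS libraries lie between 0.154 and 1.11 CPM.

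The mean level with LPS was 12.7 ± 11.4 CPM (SD, n = 3) in embryonic and 0.507 ± 0.523 CPM (SD, n = 3) in adult stroma. Against the limit set by 3 counts per PBS library, the embryonic mean was at least 140.3-fold higher and the adult mean at least 4.26-fold higher. Culture by culture, the level with LPS was 14.7, 138.2 and 268.9 times the limit of the PBS library in embryonic cultures 1, 2 and 3 and 10.1, 1.06 and 2.54 times in adult ones. Without embryonic culture 3 the embryonic bound was 76.8-fold, and without adult culture 1 the adult bound was 1.67-fold. In the quasi-likelihood test of edgeR, adjusted over 13038 genes by the Benjamini-Hochberg method, the rise passed at an adjusted p under 0.05 in embryonic stroma (adjusted p = 0.0452), where 2.67% of the genes tested rose. It did not pass in adult stroma (adjusted p = 0.648), where 0.598% rose. The replicate number was also used as a block. It was taken to pair LPS and PBS libraries of a culture because their deviations from group means correlated, and no source states this pairing. With the block, Ifnb1 passed in both embryonic stroma (adjusted p = 0.00133) and adult stroma (adjusted p = 0.0331) by edgeR. The adult call was lost without adult culture 1 or 3 (adjusted p up to 0.230). Under the block 9.43% of the genes rose in embryonic and 4.69% in adult stroma. Without the block and with 1 library left out, the embryonic call held only without embryonic LPS 1 (adjusted p = 0.0152, edgeR). It was lost when any other library was left out, with adjusted p up to 0.133.

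Between the stages with LPS, the ratio of the means was 25.1 and the log2 difference was 4.62 ± 1.25 (SE), which did not pass the edgeR test (adjusted p = 0.0939). With 1 library left out the difference ran from 3.71 (without embryonic LPS 3) to 5.94 (without adult LPS 1). It passed without embryonic LPS 1 (adjusted p = 0.0487) and by DESeq2 (adjusted p = 0.00191). In that contrast 5.31% of the genes tested were called. The difference between the stages in the size of the rise has no estimate for Ifnb1, since both PBS groups were at 0.

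The level of Ifnb1 with LPS moved with the summed macrophage markers of the same library. The 12 markers summed to 154.3, 790.4 and 1609 CPM in embryonic LPS libraries 1, 2 and 3 and to 109.9, 9.441 and 30.94 CPM in the adult ones, and all 6 libraries stood in the same order on both measures. Taken singly, 7 of the 12 markers put the LPS libraries in the order of Ifnb1 and 5 did not (Csf1r, Cx3cr1, Mrc1, C1qa and Cd68). The markers themselves differed with LPS, as Ptprc and Emr1 were higher with LPS in 6 of 6 cultures and Cx3cr1 was lower in 6 of 6. Per 1000 CPM of these markers, Ifnb1 stood at 8.63, 15.99 and 14.99 CPM in the embryonic and at 10.1, 16.3 and 8.38 CPM in the adult LPS libraries. On this scale, chosen after the values were seen, the stages overlapped. The part of these cells in the Ifnb1 result was not tested. In the PBS libraries the same markers summed to 202.5, 333 and 2199 CPM in embryonic and 101.1, 11.03 and 28.3 CPM in adult stroma, and Ifnb1 had no count. The markers of plasmacytoid dendritic cells, a major source of type I interferon in blood, stood at or under 0.505 CPM in all libraries, and those of T and NK cells at or under 1.33 CPM.

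**Figure D2:**
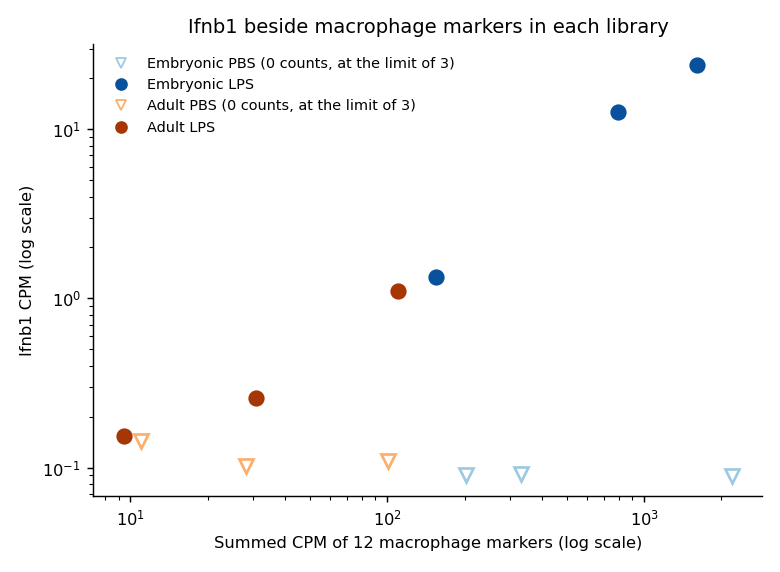
Ifnb1 in CPM against the summed CPM of 12 macrophage markers in the same library, both on log axes. Filled points are LPS libraries and open triangles are PBS libraries, which had 0 counts and are drawn at the limit of 3 counts. The 6 LPS libraries rise together on both axes, from 9.441 CPM of markers with 0.154 CPM of Ifnb1 to 1609 CPM of markers with 24.1 CPM of Ifnb1.

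Other interferon genes had few counts. Of 20 listed ligands (the interferon alpha genes, epsilon, kappa, zeta, gamma and lambda), 13 had no count in any library and none was frequent enough to be tested. Ifnz was the 1 gene above 3 counts in any library, with at most 5 counts. Ifng had 1 count in all 12 libraries together. The deposited counts hold uniquely mapped reads only, so reads shared by the closely similar interferon alpha genes are not in them.

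All 4 receptor chains were present in every library, with and without LPS, at levels of the same order in both stages. Counts ranged from 863, for Ifnar2 in adult PBS 2, to 8085, for Ifngr2 in embryonic LPS 2. Levels of different genes were compared per kilobase of annotated exon. Without LPS, Ifngr2 stood highest, at 46.0 ± 4.10 CPM per kb (SD, n = 3) in embryonic and 38.9 ± 1.82 CPM per kb in adult stroma. Ifnar1 stood at 15.1 ± 1.64 and 14.49 ± 0.770, Ifngr1 at 14.47 ± 3.81 and 15.1 ± 1.13, and Ifnar2 at 13.02 ± 2.04 and 12.2 ± 0.477 CPM per kb in embryonic and adult stroma. Ifngr2 did not overlap with any other chain in any group. The order of Ifnar1 and Ifngr1 changed from group to group and their values overlapped in all 4, while Ifnar2 lay last in all 4 groups and was clear of its neighbour in adult PBS only. Per kilobase of the longest annotated transcript in place of all exons, Ifnar1 stood at 23 ± 2.49 in embryonic and 22 ± 1.17 CPM per kb in adult PBS libraries and Ifngr1 at 19.5 ± 5.13 and 20.4 ± 1.52 (SD, n = 3), with Ifnar1 then second in all 4 groups.

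**Figure D3:**
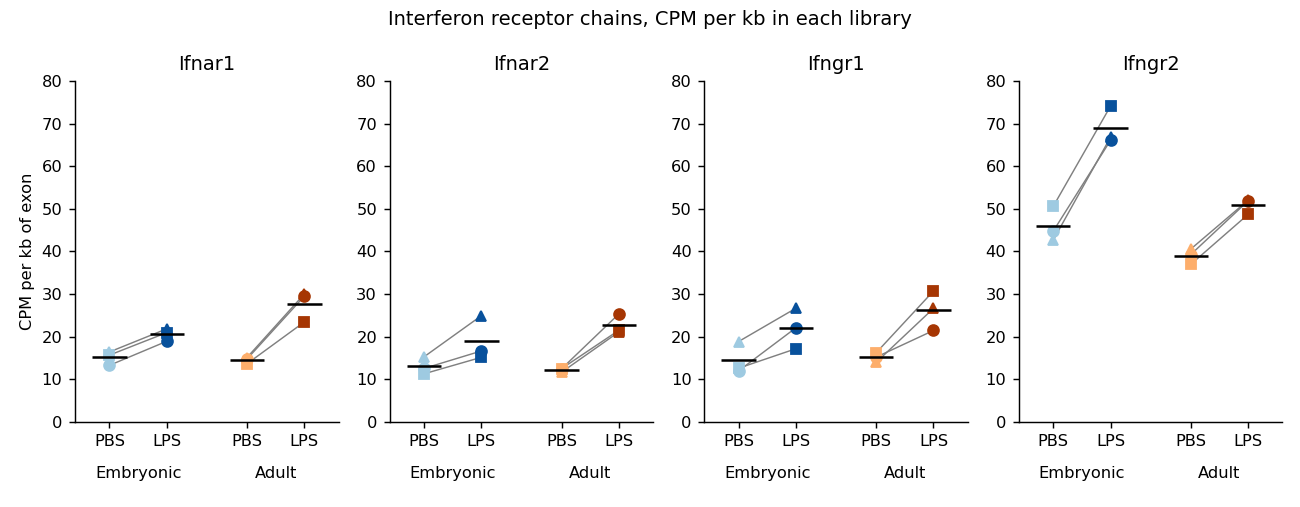
Level of the 4 receptor chains in CPM per kb of exon in each library, with PBS and LPS libraries of the same replicate number joined. Circles, squares and triangles are replicates 1, 2 and 3, and black lines are means. Each line rises from PBS to LPS, and Ifngr2 lies above the other chains, between 36.9 and 74.1 CPM per kb.

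With LPS every receptor chain was higher than with PBS in 3 of 3 pairs at both stages, by between 1.28 and 2.04 times. Neither the share of all genes that were higher in every pair nor the share whose groups did not overlap was counted, and both traits are given as description. Without the block, 1 of the 4 chains rose in embryonic stroma (Ifngr2) and 1 of 4 in adult stroma (Ifnar1), beside the 2.67% and 0.598% of all genes given above. With the block, all 4 rose at both stages, beside 9.43% and 4.69%.

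Ifnar1 encodes the chain that carries TYK2. It stood at 78.8, 93.0 and 97.4 CPM in embryonic PBS libraries 1, 2 and 3 and at 112.3, 124.4 and 129.7 CPM with LPS. In adult stroma it stood at 87.6, 80.9 and 89.6 CPM with PBS and at 175.2, 139.2 and 178.2 CPM with LPS. The PBS and LPS libraries did not overlap at either stage, and all adult LPS libraries lay above all embryonic LPS libraries. Embryonic culture 3 was highest of its group under both conditions. The log2 fold change was 0.44 ± 0.12 (SE) in embryonic stroma (adjusted p = 0.111, and 0.00474 with the block) and 0.93 ± 0.12 in adult stroma (adjusted p = 0.0101, edgeR). The adult call was lost without adult LPS 3 or without any one of the adult PBS libraries, where adjusted p reached 0.0829.

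Ifnar2 encodes the chain with the long signalling tail that binds JAK1 and STAT2. Its levels in embryonic libraries 1, 2 and 3 were 41.7, 37.5 and 50.8 CPM with PBS and 55.4, 50.4 and 82.9 CPM with LPS. Adult libraries held 41.4, 41.6 and 38.8 CPM with PBS and 84.4, 71.5 and 70.3 CPM with LPS. The adult groups did not overlap, while the embryonic groups overlapped through culture 3, which was highest under both conditions. Culture 3 also held the most macrophage marker RNA, and the part of those cells was not tested. The log2 fold change was 0.54 ± 0.19 (SE) in embryonic and 0.89 ± 0.19 in adult stroma by edgeR, with adjusted p = 0.238 and 0.0740 (with the block 0.00726 and 9.61e-04).

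Ifngr1 encodes the chain that binds interferon gamma. In embryonic libraries 1, 2 and 3 it stood at 34.1, 35.9 and 53.7 CPM with PBS and at 62.9, 48.9 and 75.9 CPM with LPS. In adult libraries it stood at 43.2, 46.2 and 39.8 CPM with PBS and at 61.1, 87.4 and 75.8 CPM with LPS. As for Ifnar2, embryonic culture 3 was highest under both conditions and made the embryonic groups overlap, and the adult groups were apart. The log2 fold change was 0.60 ± 0.21 (SE) and 0.80 ± 0.21 in embryonic and adult stroma by edgeR, with adjusted p = 0.260 and 0.207 (with the block 0.0134 and 0.00761). With the block, the embryonic call was lost without embryonic culture 1 (adjusted p = 0.0592) and the adult call without adult culture 2 or 3 (adjusted p up to 0.113).

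Ifngr2 encodes the chain that is needed for signalling and binds JAK2. It stood at 168.6, 190.5 and 160.8 CPM in embryonic PBS libraries 1, 2 and 3 and at 248.9, 279.2 and 251.7 CPM with LPS. In adult stroma it stood at 147.9, 139.2 and 152.8 CPM with PBS and at 195.4, 183.4 and 195.9 CPM with LPS. No group overlapped with the one it was compared with, for treatment or for stage, and embryonic culture 3 was lowest of its group with PBS. Even so, the difference between the stages with PBS was not called (adjusted p = 0.198, edgeR). The log2 fold change was 0.58 ± 0.10 (SE) in embryonic stroma (adjusted p = 0.0108) and 0.39 ± 0.10 in adult stroma (adjusted p = 0.158, and 0.00773 with the block) by edgeR. The embryonic call was lost without embryonic PBS 1 (adjusted p = 0.0607), and the adult call with the block was lost without any one adult culture (adjusted p up to 0.132).

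**Figure D4:**
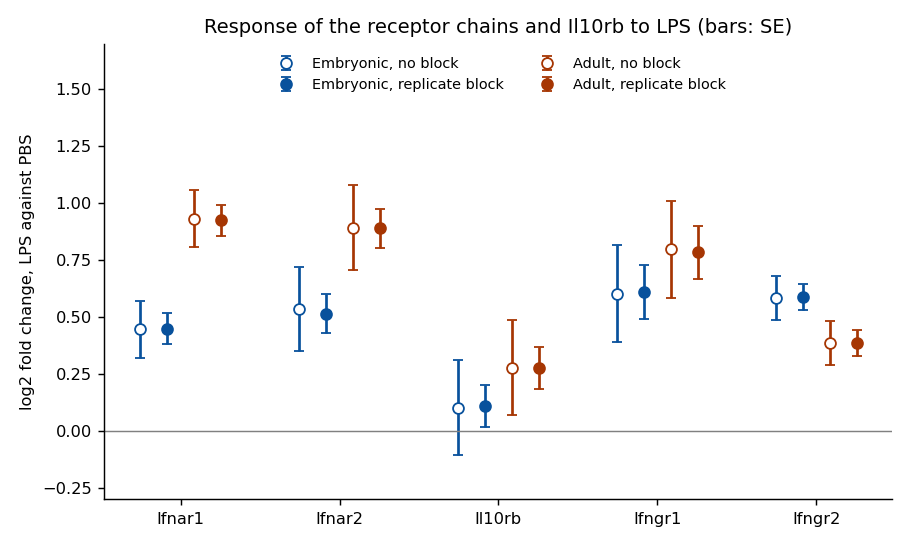
Log2 fold change of LPS against PBS for the 4 receptor chains and Il10rb in embryonic and adult stroma, from the fit without a block (open points) and with the replicate number as a block (filled points). Bars are standard errors. The type I chains and Ifngr1 lie higher in adult than in embryonic stroma, Ifngr2 lies higher in embryonic stroma, and the points for Il10rb lie between 0.10 and 0.28.

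None of the 4 chains passed the test of the difference between the stages in the response. Their ranges within pairs are given as description, and the share of all genes whose ranges lie apart was not counted. The log2 difference within a pair was 0.41 to 0.51 in embryonic and 0.78 to 1.00 in adult cultures for Ifnar1, and 0.41 to 0.71 and 0.78 to 1.02 for Ifnar2. For Ifngr2 the order was the other way, with 0.55 to 0.65 in embryonic and 0.36 to 0.40 in adult cultures. The ranges of Ifngr1 overlapped. With the block, the embryonic minus adult log2 difference was -0.48 ± 0.10 (SE) for Ifnar1 (adjusted p = 0.0962), -0.38 ± 0.12 for Ifnar2 (adjusted p = 0.381), -0.17 ± 0.17 for Ifngr1 (adjusted p = 0.849) and 0.20 ± 0.08 for Ifngr2 (adjusted p = 0.526, edgeR), beside 0.844% of all genes called. Without the block 0% of the genes were called by edgeR, with 293 at an unadjusted p under 0.05, while DESeq2 called 25.

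Between the stages without LPS, none of the 4 chains was called, while 4.08% of the genes tested were. The largest difference of the 4 was that of Ifngr2, with an embryonic minus adult log2 difference of 0.24 ± 0.10 (SE, adjusted p = 0.198, edgeR). With LPS, Ifngr2 was higher in embryonic stroma by 0.44 ± 0.10 on the log2 scale (SE, adjusted p = 0.0312), the 1 chain of 4 called, beside the 5.31% of genes given above. This call was lost when no filter on low counts was used (adjusted p = 0.0517) and in 7 of 12 fits that left out a library, those without adult LPS 1, 2 or 3, adult PBS 1 or 3, or embryonic LPS 2 or 3 (adjusted p up to 0.110). Ifnar1 was lower in embryonic stroma with LPS, by -0.43 ± 0.12 (adjusted p = 0.0738), and passed by DESeq2 (adjusted p = 0.0149). Adult culture 2, whose endothelial markers were highest, held the lowest Ifnar1 and the highest Ifngr1 of the adult LPS libraries, and the part of those cells was not tested.

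Il10rb, which stands between Ifnar2 and Ifnar1 on the chromosome, did not pass at either stage. Its level was 40.8, 66.9 and 65.4 CPM with PBS and 48.3, 78.0 and 59.3 CPM with LPS in embryonic cultures 1, 2 and 3, and it was higher with LPS in 2 of 3 pairs. In adult stroma it stood at 47.8, 43.9 and 45.1 CPM with PBS and at 59.3, 49.1 and 57.5 CPM with LPS. There it was higher with LPS in 3 of 3 pairs, by 1.12 to 1.27 times, and the adult groups did not overlap. The log2 fold change was 0.10 ± 0.21 (SE) and 0.28 ± 0.21 in embryonic and adult stroma, with adjusted p = 0.999 and 1 by edgeR, and 0.524 and 0.160 with the block.

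Set against its receptor within each library, the mRNA of the ligand came near that of its receptor chains, per kilobase of annotated exon, in embryonic cultures 2 and 3 and in no adult culture. These are RNA levels and not amounts of protein. Per kilobase, the ratio of Ifnb1 to Ifnar1 was 0.0939, 0.805 and 1.47 in embryonic LPS libraries 1, 2 and 3 and 0.0501, 0.00875 and 0.0115 in the adult ones. The ratio of Ifnb1 to Ifnar2 was 0.107, 1.11 and 1.29 in the embryonic and 0.0582, 0.00954 and 0.0164 in the adult libraries. The groups did not overlap on either ratio, and embryonic library 1 was nearer to adult library 1 than to the other embryonic libraries. The receptor side of this ratio varied little, with Ifnar1 between 18.9 and 30.0 CPM per kb over the 6 LPS libraries, so that most of its spread was that of Ifnb1. Per kilobase of the longest transcript, the ratios in embryonic LPS libraries 1, 2 and 3 were 0.0618, 0.53 and 0.969 to Ifnar1 and 0.0978, 1.02 and 1.18 to Ifnar2. How near culture 2 came to Ifnar1 thus depended on the length used. Between the chains of a receptor the ratio per kilobase was narrower: Ifnar1 over Ifnar2 lay between 0.876 and 1.42 in all libraries, and Ifngr2 over Ifngr1 between 1.59 and 4.32.

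The genes upstream and downstream were counted from lists written from general knowledge, but with earlier results of these data known. The shares that rose are therefore description. Of 15 genes on the route from TLR4 to Ifnb1, 6 rose in embryonic stroma (Cd14, Irf7, Ikbke, Nfkb1, Rela and Traf3) and 3 in adult stroma (Nfkb1, Rela and Traf3). None fell, and with the block the same 6 rose at both stages. Of all genes tested, 2.67% rose in embryonic and 0.598% in adult stroma, and 9.43% and 4.69% with the block. The median log2 fold change of the list was 0.60 at either stage, against -0.00027 and -0.0075 over all genes tested. With the block, 2 of the 15 differed between the stages, against 0.844% of all genes, both with a positive embryonic minus adult difference. Cd14, the co-receptor that hands LPS to TLR4, rose by 4.45 ± 0.84 (SE, log2) in embryonic stroma (adjusted p = 0.0203, edgeR) and had a log2 fold change of 2.13 ± 0.79 in adult stroma (adjusted p = 0.591, and 0.00112 with the block). Tlr4 itself did not pass, with log2 fold changes of -0.17 ± 0.27 and -0.21 ± 0.27 (SE), and Irf3, which is activated by phosphorylation, did not pass either, with 0.07 ± 0.11 and 0.15 ± 0.11.

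Of the 6 kinases and factors that act below the receptors, 4 rose in embryonic stroma and none in adult stroma, against 2.67% and 0.598% of all genes (6 and 4 with the block, against 9.43% and 4.69%). Among them, Stat2 rose by 4.23 ± 0.65 (SE, log2), Irf9 by 2.47 ± 0.51 and Jak2 by 1.75 ± 0.37 in embryonic stroma, with adjusted p between 0.00822 and 0.0351 by edgeR. Jak1 and Tyk2 had log2 fold changes of 0.30 ± 0.09 and 1.23 ± 0.35 (SE) and passed with the block only. With the block, 3 of the 6 differed between the stages, against 0.844% of all genes, among them Stat2 by 2.57 ± 0.11 and Irf9 by 1.66 ± 0.21 (SE, embryonic minus adult). The list's median log2 fold change was 2.11 in embryonic and 0.90 in adult stroma.

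Of 6 negative regulators of receptor signalling, 3 rose in embryonic stroma and none in adult stroma, against 2.67% and 0.598% of all genes (4 and 2 with the block, against 9.43% and 4.69%). Usp18, which displaces JAK1 from IFNAR2, rose by 7.10 ± 0.81 (SE, log2, adjusted p = 0.00228, edgeR) in embryonic stroma, and its log2 fold change in adult stroma was 2.85 ± 0.68 (adjusted p = 0.133, and 3.02e-04 with the block). Socs1 and Socs3, inhibitors of JAK kinases, rose by 4.66 ± 0.66 and 5.66 ± 0.93 (SE) in embryonic stroma. The median of the list was 2.71 in embryonic and 1.03 in adult stroma. With the block, 1 of the 6 differed between the stages, against 0.844% of all genes, with a positive embryonic minus adult difference. Of the 8 other chains of the same receptor class, 6 were tested and none passed, and with the block Il10ra, the interleukin 10 receptor chain of leukocytes, rose in embryonic stroma by 2.53 ± 0.46 (SE, adjusted p = 0.01002, edgeR).

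Of 19 interferon-stimulated genes, 15 rose in embryonic and 4 in adult stroma, against 2.67% and 0.598% of all genes, and with the block 19 and 17 did, against 9.43% and 4.69%. The largest log2 fold changes were those of Rsad2, Cmpk2 and Oasl1 in embryonic stroma, at 10.47, 9.90 and 9.53. In adult stroma they were those of Mx1, Rsad2 and Cmpk2, at 6.79, 6.68 and 6.46, of which Mx1 did not pass and its PBS libraries held 3 counts or fewer, so that its value depends on the prior count. Rsad2, Cmpk2, Oasl1 and Mx1, among others of the list, passed the filter on low counts through LPS groups only. The rises of such genes carry no weight of their own in these counts. The list's median was 5.11 against 2.37 in adult stroma, and with the block 12 of the 19 differed between the stages (0.844% of all genes did), all with a larger rise in embryonic stroma. Rsad2, an antiviral enzyme, stood at 0.614 ± 0.387 CPM (SD, n = 3) in adult PBS libraries and at 65.5 ± 3.52 CPM in adult LPS libraries, and the latter held between 5 and 34 counts of Ifnb1.

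Of 11 interferon gamma-responsive genes, 8 were frequent enough to be tested. Ciita, H2-Aa and H2-Ab1 were not, with means of 0.125, 0.705 and 0.429 CPM in embryonic LPS libraries and 0.0787, 0.101 and 0.209 CPM in adult ones. Cxcl9 and Cd74 passed the filter through the LPS groups only, so that a rise of either carries no weight of its own in these counts. Of the 8, 7 rose in embryonic and 3 in adult stroma, against 2.67% and 0.598% of all genes. With the block 8 and 7 rose, against 9.43% and 4.69%. Ifng itself had no more than 1 count. The adult genes were Gbp2, Gbp3 and Irf1, with log2 fold changes of 3.58 ± 0.64, 4.28 ± 0.78 and 3.53 ± 0.64 (SE). The median was 6.18 in embryonic and 3.55 in adult stroma, or 3.24 in adult stroma with Cxcl9, which had no count with PBS there, set at its lower bound. With the block, 3 of the 8 differed between the stages, against 0.844% of all genes (Gbp3, Irgm1 and Igtp). Many of these genes also respond to type I interferon and to NF-kB. The macrophage marker levels given above hold for each of these lists, and their part in the lists' changes was not tested.

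**Figure D5:**
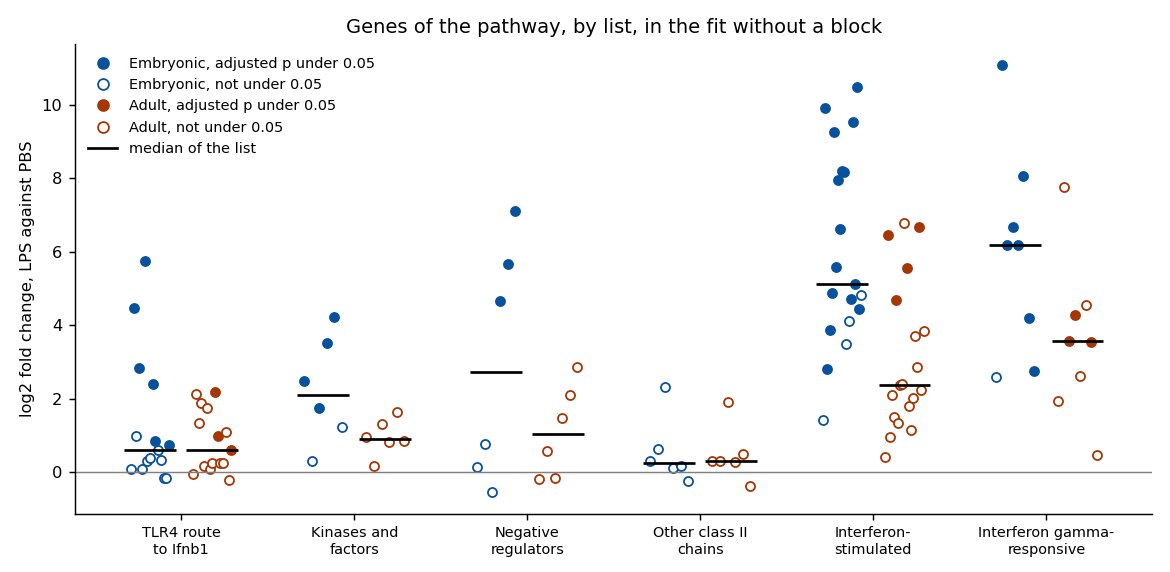
Log2 fold change of LPS against PBS for each tested gene of 6 lists, in embryonic (blue) and adult (brown) stroma, in the fit without a block. Filled points passed at an adjusted p under 0.05, open points did not, and black lines are list medians. The medians of interferon-stimulated genes are 5.11 and 2.37, and those of other class II receptor chains are 0.23 and 0.30.

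Genes whose pattern over the 12 libraries was most like that of each member were found by Pearson's r of log2 CPM, which describes libraries that share their treatment and culture. For Ifnb1 these were Slamf7, Il27, Gpr18, Dusp2 and Socs3, with r between 0.977 and 0.985. All PBS libraries held no count of Ifnb1 and so share the same log2 CPM in each r of Ifnb1. For Ifngr2 they were Tank, Il1a, Ccl4, Ccl3 and Cd69 (r between 0.943 and 0.957). For Ifnar1 they were Pglyrp2, Tnip1, Cyp27b1, Sprr2e and Il23a (0.934 to 0.967), for Ifnar2 Nup62, Ptplb, Birc2 and Tnip1 (0.943 to 0.954), and for Ifngr1 Wdyhv1, Cxcl16, Neurl3, Supv3l1 and Rab32 (0.905 to 0.929). Among the members, Ifnb1 was closest to Ifngr2 (r = 0.897), and Ifnar2 was close to both Ifngr1 (r = 0.886) and Ifnar1 (r = 0.885), while Ifngr1 and Ifngr2 were the least alike (r = 0.419).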

How the data were processed

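Stranded, poly(A)-selected mRNAseq libraries (12 in 4 groups of 3) were analysed. Per the study's methods, the authors trimmed reads, aligned them with STAR to the GRCm38.p6 assembly and kept those that mapped once, with 1 mismatch or none. The deposited values are raw read counts per gene symbol, not normalized, on either strand and on each strand. The strand that held the gene reads was used, and the other held 1.14% to 1.98% of the gene reads of both. Entries that name no gene stayed out of the totals: reads mapped to several places (8.45% to 9.37% of all reads), unmapped reads (1.10% to 2.49%), and reads outside genes or ambiguous between them (8.69% to 9.85% of unique reads). The annotation release behind the counts is not given in the sources used here.

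Genes above 0.5 CPM in all libraries of a group were kept (13038), scaled by TMM and tested with edgeR 4.0.16 (quasi-likelihood, R 4.3.3) on all 12 libraries, with Benjamini-Hochberg adjustment. The standard error is the absolute log2 fold change over the square root of F. DESeq2 1.42.0 was an alternative. Figures were drawn with matplotlib 3.10.9. Levels per kb use the union of GENCODE exons, and promoters are from RefSeq (GRCm38.p6). The scripts were also checked on simulated counts (seed 1), from which no value is given.

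Replicate numbers were taken from the labels. Deviations from group means of LPS and PBS libraries with the same number correlated at 0.759, 0.784 and 0.71 in embryonic and 0.803, 0.85 and 0.61 in adult stroma, so the numbers were taken to pair the libraries, although no source states a shared culture. No pair of libraries of a group agreed within sampling noise. The study calls the cultures independent, and p-values measure the spread between these libraries. The limit of 3 counts covers counting error only.

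The members, the gene and marker lists and the tests were chosen with earlier results of these data known. The members are described in full. A gene of a list could be named if the list held up to 15 genes or if it was among the 3 with the largest change in a stage, and up to 5 genes were named by likeness to each member. Some genes that this rule names are not reported here. Some listed symbols were matched by synonym. Alternatives were adjusted p under 0.01, a log2 fold change of at least 2, other size factors and filters, either strand, blocks, the 2 groups alone and each library left out. Leaving out a whole culture under the block or in the Ifnb1 bounds, Ifnb1 per macrophage marker, and the markers taken singly were added after seeing the data.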

Additional observations from a re-analysis of the deposited data

How the results depend on the processing

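Rises of the receptor chains kept their direction under every alternative run, while the calls changed with the pairing of cultures and the tool. With the replicate block within each stage, the log2 fold changes of Ifnar1 (0.45), Ifnar2 (0.51) and Ifngr1 (0.61) in embryonic stroma and of Ifnar2 (0.89), Ifngr1 (0.78) and Ifngr2 (0.39) in adult stroma passed, as did Ifnb1 in adult stroma (adjusted p = 0.0331), and the block changed no other call of the 5 genes. Genes called then numbered 1636 and 808 in embryonic and adult stroma and 110 for the difference. With the block across stages, Ifnb1 in embryonic stroma did not pass (adjusted p = 0.147), and 891 and 1059 genes differed between the stages with PBS and LPS. DESeq2 called 684, 294, 25, 1552 and 1704 genes (LPS in embryonic and adult stroma, their difference, stage with PBS and with LPS). It also called Ifnar1 in embryonic stroma (0.43), Ifnb1 (adjusted p = 0.0149), Ifnar2 (0.88) and Ifngr2 (0.37) in adult stroma, and Ifnb1 (4.65) and Ifnar1 (-0.43) between the stages with LPS. With only the groups compared, 4, 227, 173 and 70 genes were called (LPS in embryonic and adult stroma, stage with PBS and with LPS). Ifnb1 (adjusted p = 0.216) and Ifngr2 (0.56) in embryonic stroma and Ifngr2 between the stages with LPS (0.42) were then lost, and Ifnar2 in adult stroma (0.89) was gained. At an adjusted p under 0.01, 119, 16, 102 and 96 genes were called in those comparisons, and Ifnb1 (adjusted p = 0.0452) and Ifngr2 (0.58) in embryonic stroma, Ifnar1 in adult stroma (0.93) and Ifngr2 between the stages with LPS (0.44) were lost. The last 3 of these also fell short of a log2 fold change of 2, a minimum that left 291 and 385 genes for stage with PBS and LPS. Without a filter, Ifngr2 between the stages with LPS (0.42) was lost. The causes were not tested.

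Leaving out 1 library gave 95 to 471 genes in embryonic LPS, 4 to 145 in adult LPS, 0 throughout for the difference, 152 to 638 for stage with PBS and 132 to 814 with LPS. With the block and 1 culture left out these were 1049 to 1989, 232 to 1243 and, for the difference, 34 to 164. For Ifnb1, adjusted p ran from 0.0152 to 0.133 in embryonic and 0.324 to 1 in adult stroma (0.00131 to 0.00316 and 0.0148 to 0.230 with the block), and the log2 difference between the stages with LPS from 3.71 to 5.94. Over both kinds of fit, log2 fold changes in embryonic stroma lay at 0.34 to 0.51 (Ifnar1), 0.26 to 0.67 (Ifnar2), 0.41 to 0.84 (Ifngr1) and 0.53 to 0.66 (Ifngr2). In adult stroma they lay at 0.87 to 1.04, 0.80 to 0.94, 0.67 to 0.93 and 0.35 to 0.42. Ifngr2 between the stages with LPS lay at 0.38 to 0.47. The Ifngr1 difference in response lay at -0.37 to 0.043, reversed without embryonic PBS 3. Differences between the stages with PBS reversed for Ifnar1 (-0.0045 to 0.14), Ifnar2 (-0.037 to 0.18) and Ifngr1 (-0.30 to 0.057), without embryonic PBS 3 for Ifnar1 and Ifnar2 and without embryonic PBS 1 or 2 for Ifngr1, none of them called.

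Ifnb1 in adult LPS libraries 2 and 3 rests on 5 and 6 counts, among 30074086 and 24563832 gene counts, which limits the precision of its level there.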
